A study of Arabidopsis thaliana with 36 samples.

Results

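UDP-glycosyltransferases (UGTs) of Arabidopsis thaliana were followed across 36 one-colour oligonucleotide arrays of roots and shoots of plants with or without iron. The members were all probe sets for which the array's annotation names a single gene symbol of the UGT form (UGT, family number, letter, gene number), which gave 47 probe sets for 47 genes among 22810 deposited. A further 3 probe sets that name a UGT together with other genes were not used as members. The largest subfamilies were UGT71 with 9 members, UGT76 with 8 and UGT73 with 7. The other 8 subfamilies (UGT72, UGT74, UGT78, UGT80, UGT84, UGT85, UGT87 and UGT88) had between 1 and 5.

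The plants belonged to 2 natural inbred ecotypes, Kas-1 (called Kas here) and Tsu-1 (Tsu). They were 24 d old and had grown hydroponically in rockwool, with 16 h of light a day at 150 µmol. Iron was then withheld for 24 h (-Fe 24 h) or for 48 h (-Fe 48 h), or supplied for 24 h at 50 µM in the form of Fe(III)-EDDHA (+Fe). Each of the 12 combinations of ecotype, tissue and medium had 3 arrays. Iron-replete plants of 48 h were not analysed here, so at 48 h the lack of iron and the longer time cannot be told apart. The labels do not state that the 3 arrays of a group are separate cultures, so the p-values cover just the scatter among these arrays, part or all of which may be technical.

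UGTs move a sugar, usually glucose from UDP-glucose, onto small molecules, which makes them more soluble, less reactive or ready for storage in the vacuole. In Arabidopsis the family acts on monolignols and other phenylpropanoids, flavonols, auxin, cytokinins, abscisic acid, salicylic acid and glucosinolate precursors. UGT72E1, UGT72E2 and UGT72E3 glucosylate monolignols and the related aldehydes, and phenylpropanoid metabolism also yields the coumarins that iron-starved Arabidopsis roots release, several of them after storage as glucosides.

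Tissue labels held on every array, although rosettes are the material named in the extraction protocol of root samples too. PSAN, a photosystem subunit, had log2 values between 3.34 and 5.31 in roots and between 11.52 and 12.14 in shoots, and 3 genes typical of roots (PYK10, EXPA18 and EXPA7) averaged between 7.6 and 8.64 in roots and between 4 and 4.68 in shoots. Ecotype labels did not hold everywhere. On an index of 82 probe sets that separated the ecotypes at 48 h (0 for Tsu, 1 for Kas, no UGT used), 11 of 36 arrays lay 0.2 or more from their label. The index was 0.401 to 0.567 in Tsu shoots -Fe 24 h, 0.412 to 0.667 in Tsu roots -Fe 24 h, 0.124 to 0.37 in Tsu roots +Fe, 0.571 to 1.053 in Kas roots -Fe 24 h and 0.565 to 1.033 in Kas roots +Fe. The other 7 groups stood at their label, but the 4 groups of -Fe 48 h do so by construction, since the index was scaled on them. For UGT72E1 and for counts of called UGTs, results that use the 5 groups with ranges above are also given without the off-label arrays where any array of each group remained. How many of all probe sets those fits called was not counted. A change in their UGT counts cannot be told from a change over all probe sets.

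UGT72E1 rose without iron in the roots of both ecotypes at both times. In Kas roots its log2 values were 8.89, 9.03 and 8.94 at -Fe 24 h, and 9.11, 9.04 and 8.93 at -Fe 48 h, against 6.49, 7.65 and 7.18 with iron. In Tsu roots they were 8.85, 9.33 and 8.71 at -Fe 24 h, and 9.89, 8.99 and 9.86 at -Fe 48 h, against 7.63, 7.61 and 8.27 with iron. All 12 iron-free root arrays (8.71 to 9.89) thus lay above all 6 iron-fed root arrays (6.49 to 8.27).

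The change of UGT72E1 in Kas roots was 1.85 on the log2 scale at 24 h (SE 0.27, 3.60-fold, limma adjusted p = 0.00616) and 1.92 at 48 h (SE 0.27, 3.79-fold, adjusted p = 0.00106). In Tsu roots it was 1.13 at 24 h (2.18-fold, adjusted p = 0.0199) and 1.74 at 48 h (3.35-fold, adjusted p = 0.00385). The Tsu call at 24 h was lost without Tsu roots +Fe replicate 1 (adjusted p = 0.0543), without Tsu roots +Fe replicate 2 (0.0893) or without Tsu roots -Fe 24 h replicate 2 (0.123). With the off-label arrays left out, the change was 2.49 in Kas roots at 24 h (adjusted p = 0.000777), 2.54 in Kas roots at 48 h (adjusted p = 0.000391) and 1.97 in Tsu roots at 48 h (adjusted p = 0.00375). Each of these rests on 1 iron-fed array, assumed to vary like the other groups, and Tsu roots -Fe 24 h had no array left.

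The rise in roots was not shown to differ between ecotypes. The iron change of Kas less that of Tsu was 0.72 at 24 h (95% interval -0.095 to 1.54, limma adjusted p = 0.295) and 0.18 at 48 h (-0.64 to 0.996, adjusted p = 0.793). The 48 h value was 0.56 without the off-label arrays (adjusted p = 0.371), and with 1 array left out it lay on either side of 0 (lowest -0.13, without Kas roots +Fe replicate 1). Between 24 h and 48 h without iron UGT72E1 differed by 0.07 in Kas roots (adjusted p = 0.944) and by 0.62 in Tsu roots (adjusted p = 0.2). The Kas difference was 0.04 without the off-label arrays (adjusted p = 0.968).

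In shoots the iron change of UGT72E1 was called as different between the labelled ecotypes. At 24 h that call uses off-label Tsu arrays, and at 48 h it depended on single arrays. Tsu shoots had 7.36, 7.11 and 7.53 at -Fe 24 h and 6.99, 6.99 and 6.80 at -Fe 48 h, against 6.35, 6.30 and 6.38 with iron, so that both iron-free groups lay above the iron-fed one. UGT72E1 rose by 0.995 in Tsu shoots at 24 h (SE 0.12, 1.99-fold, limma adjusted p = 5.95e-06) and by 0.59 at 48 h (SE 0.12, 1.5-fold, adjusted p = 0.00838). The 3 Tsu shoots -Fe 24 h arrays are among those off their ecotype label. Their UGT72E1 values (7.11 to 7.53) lay above all 9 Kas shoot arrays (6.15 to 6.94) as well as the other 6 Tsu shoot arrays (6.30 to 6.99). With the index as a covariate the 24 h change was 1.78 (SE 0.53, limma adjusted p = 0.642). The index varied little within the other shoot groups, so that fit cannot tell the iron change from the index. With no off-label arrays the 48 h change was 0.59 (limma adjusted p = 0.00794).

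Kas shoots had UGT72E1 values of 6.40, 6.15 and 6.30 at -Fe 24 h and 6.60, 6.81 and 6.78 at -Fe 48 h, against 6.94, 6.61 and 6.73 with iron. It fell by 0.48 at 24 h (1.39-fold, limma adjusted p = 0.0462), a call that was lost when any 1 of the 6 arrays compared was left out (adjusted p between 0.0518 and 0.194). At 48 h the difference was -0.03 (95% interval -0.28 to 0.22, adjusted p = 0.946). The change in Kas shoots minus that in Tsu shoots was -1.47 at 24 h (limma adjusted p = 7.56e-06) and -0.62 at 48 h (adjusted p = 0.0478). The 24 h value uses the Tsu shoots -Fe 24 h arrays, all of them off their ecotype label. The 48 h difference remained called in 2 of the 12 fits that left out 1 array (highest adjusted p = 0.126, all 12 of the same sign).

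Root and shoot changes of UGT72E1 were compared directly in a fit of all 36 arrays, added after the values were seen. The root change exceeded the shoot change by 2.32 in Kas at 24 h (SE 0.31, limma adjusted p = 0.000142), by 1.95 in Kas at 48 h (adjusted p = 0.000231) and by 1.16 in Tsu at 48 h (adjusted p = 0.0371), while in Tsu at 24 h the excess was 0.13 (95% interval -0.497 to 0.76, adjusted p = 0.861). These 4 comparisons called 2.86%, 8.29%, 2.41% and 8.05% of all probe sets, in that order. Both Kas differences held without any 1 of the 12 arrays used, but the Tsu difference at 48 h remained called in 2 of 12 such fits (highest adjusted p = 0.131, without Tsu roots -Fe 48 h replicate 1). When the off-label arrays were left out, the excess was 2.97 in Kas at 24 h, 2.57 in Kas at 48 h and 1.39 in Tsu at 48 h. Each of these rests on 1 iron-fed root array. Its UGT72E1 value was the lowest of its group, 6.49 in Kas and 7.61 in Tsu.

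Ordered by mean, UGT72E1 was highest in Tsu roots -Fe 48 h (9.58 ± 0.51, SD, n = 3), followed by Kas roots -Fe 48 h (9.03 ± 0.09), Tsu roots -Fe 24 h (8.96 ± 0.32) and Kas roots -Fe 24 h (8.95 ± 0.07), each overlapping the next. A gap with no overlapping arrays separated these from Tsu roots +Fe (7.84 ± 0.38), and another separated that group from Tsu shoots -Fe 24 h (7.34 ± 0.21). Kas roots +Fe (7.10 ± 0.58), Tsu shoots -Fe 48 h (6.93 ± 0.11), Kas shoots +Fe (6.76 ± 0.17) and Kas shoots -Fe 48 h (6.73 ± 0.11) formed a chain of overlapping groups. Tsu shoots +Fe (6.34 ± 0.04) and Kas shoots -Fe 24 h (6.28 ± 0.12) were lowest and overlapped each other.

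**Figure D1:**
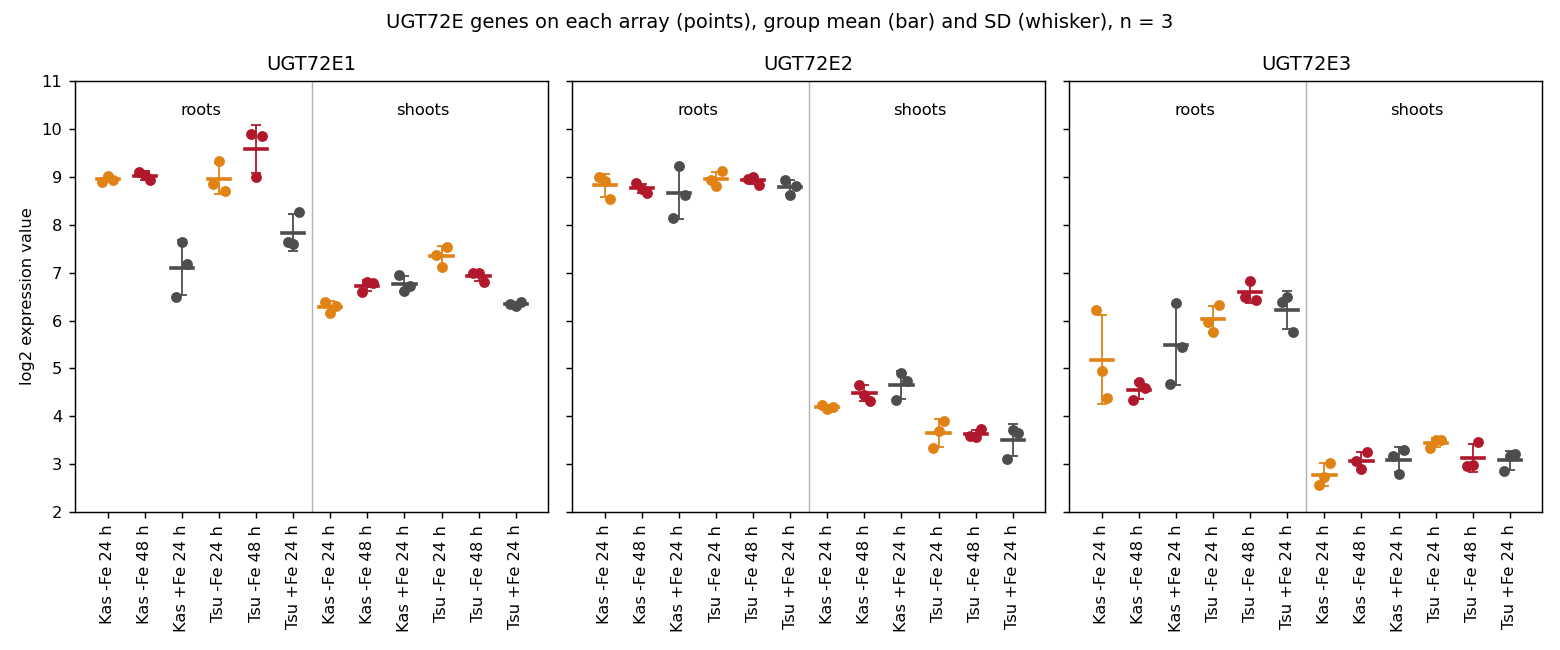
Log2 expression values (vertical axis) of UGT72E1, UGT72E2 and UGT72E3 on each of the 36 arrays (points), with the group mean (bar) and SD (whisker), by ecotype and medium within roots and shoots. The UGT72E1 panel shows the 12 iron-free root arrays at 8.71 to 9.89, above the 6 iron-fed ones at 6.49 to 8.27, while UGT72E2 and UGT72E3 are root-high with no called iron change.

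Neither of the closest paralogs was called in any of the 8 iron comparisons. UGT72E2, whose product makes coniferyl and sinapyl alcohol glucosides, had values of 9.01, 8.91 and 8.54 in Kas roots -Fe 24 h, and 8.86, 8.75 and 8.66 at -Fe 48 h, against 8.15, 9.23 and 8.61 with iron. In Tsu roots it had 8.94, 8.82 and 9.12 at -Fe 24 h, and 8.95, 9.01 and 8.83 at -Fe 48 h, against 8.92, 8.63 and 8.80 with iron. Iron-free and iron-fed root arrays overlapped in both ecotypes, and the 4 root differences lay between 0.09 and 0.18. The widest of their 95% intervals reached 0.60 upwards, in Tsu roots at 24 h (adjusted p = 0.62). In shoots UGT72E2 differed by -0.46 in Kas at 24 h (limma adjusted p = 0.2) and by -0.18 to 0.15 in the other 3 comparisons.

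UGT72E3 encodes a sinapyl alcohol glucosyltransferase. Its Kas root values were 6.21, 4.95 and 4.39 at -Fe 24 h and 4.35, 4.71 and 4.59 at -Fe 48 h, against 4.68, 6.36 and 5.45 with iron, while all 9 Tsu root arrays lay between 5.76 and 6.83. The 2 Kas root arrays above 6 were the 2 with the lowest ecotype index (0.571 and 0.565). At -Fe 48 h UGT72E3 was lower in Kas roots than in Tsu roots by 2.04 on the log2 scale (4.10-fold, limma adjusted p = 0.00146).

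Outside the UGT family, the 5 single-gene probe sets whose root pattern was most like that of UGT72E1 were AT1G47400, AT3G58060, AT3G60910, AT3G07720 and AT2G28710, with Pearson correlations over the 18 root arrays of 0.931, 0.902, 0.9, 0.885 and 0.881. These arrays share their groups, so the coefficients describe the pattern and carry no p. Over the 18 shoot arrays the same coefficients were 0.469, 0.334, -0.183, -0.013 and -0.019. Within the family the highest root value was 0.455, for UGT78D3, a flavonol arabinosyltransferase, and the lowest was -0.743, for UGT78D1, a flavonol rhamnosyltransferase. UGT78D3 was dim, with group means of 2.21 to 2.67. The 5 genes above were the highest of many more probe sets than the UGTs, so the 2 maxima are not comparable.

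Of the 47 UGTs, 26 were called in none of the 8 iron comparisons, 16 in exactly 1, 4 in 2 and UGT72E1 in 7. UGT72E1 was picked by name as the known iron-responsive member. Its 7 calls pool rises with the fall in Kas shoots at 24 h, and not all of them held with single arrays left out. Of all probe sets 69.2% were called in none (UGTs 55.3%), 21.3% in exactly 1 (UGTs 34%), 7.02% in 2 (UGTs 8.51%) and 0.0176% in 7 or more. A call is a limma adjusted p below 0.05 over all 22746 probe sets tested. Comparisons of the same ecotype and tissue at 24 h and 48 h share their iron-fed arrays.

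**Figure D2:**
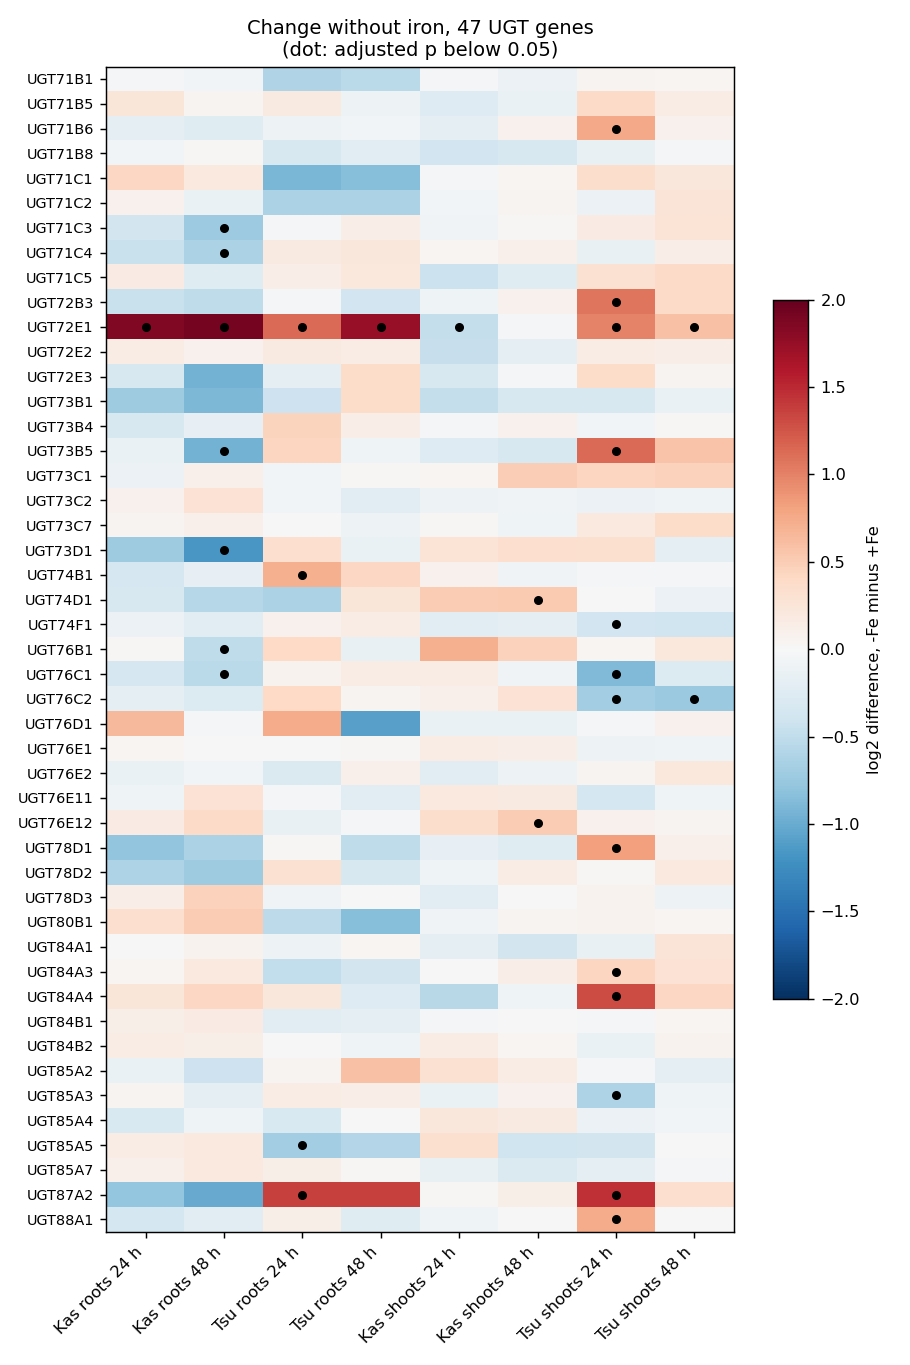
Log2 difference of -Fe minus +Fe (colour, limited to -2 to 2) for the 47 UGT genes (rows, by subfamily) in the 8 iron comparisons (columns), with a dot where the limma adjusted p was below 0.05. The row of UGT72E1 holds 7 of the dots, and the Tsu shoots 24 h column holds 13.

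Among the 26 UGTs with no call, 17 differed by under 0.5 on the log2 scale in every iron comparison. They include the flavonol arabinosyltransferase gene UGT78D3, the auxin glucosyltransferase gene UGT84B1 (largest difference -0.23) and UGT84B2 (0.15). These genes were dim, with group means of 2.21 to 2.67, 2.28 to 3.16 and 2.08 to 2.49 in that order. The lower quartile of probe set means was 3.001, so their small differences say little about a response to iron. The share of all probe sets that stayed under 0.5 was not counted. UGT76D1 had the largest difference of the 26, with 4.26, 5.10 and 4.72 in Tsu roots -Fe 48 h against 6.34, 4.90 and 6.13 with iron (-1.09, limma adjusted p = 0.0777), and its groups overlapped because of Tsu roots +Fe replicate 2. UGT71C1 (-0.91 in Tsu roots at 24 h, adjusted p = 0.0622), UGT73B1 (-0.90 in Kas roots at 48 h, adjusted p = 0.0558) and UGT80B1 (-0.85 in Tsu roots at 48 h, adjusted p = 0.0538) came next after UGT72E3.

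In Kas roots at 24 h UGT72E1 was the single UGT called (1 of 47, 2.13%, against 1.94% of all probe sets, 0.624% upwards). Without the off-label arrays 6 were called: UGT72E1, and with lower values UGT87A2 (-1.60), UGT73D1 (-1.26), UGT78D1 (-1.25), UGT78D2 (-1.12) and UGT88A1 (-0.81). That fit has 1 iron-fed Kas array, with an ecotype index of 1.033. Leaving out Kas roots +Fe replicate 2 alone gave 5 calls, and leaving out Kas roots -Fe 24 h replicate 1 gave 2. The shares of all probe sets called in these fits were not counted.

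In Kas roots at 48 h 7 UGTs were called (14.9%, against 6.73% of all probe sets), UGT72E1 upwards and 6 downwards. Of all probe sets 2.84% were called upwards and 3.9% downwards. UGT73D1 had 4.29, 4.55 and 4.49 at -Fe 48 h, against 5.86, 5.29 and 5.68 with iron, and fell by 1.17 on the log2 scale (SE 0.22, 2.24-fold, limma adjusted p = 0.00484). UGT73B5, which is induced by pathogens and oxidative stress, had 4.65, 4.22 and 4.59 at -Fe 48 h, against 5.53, 5.35 and 5.41 with iron, and fell by 0.94 (SE 0.17, 1.92-fold, adjusted p = 0.00482). In both genes the groups did not overlap.

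The other 4 that fell in Kas roots at 48 h were UGT71C3 (-0.72), its neighbour UGT71C4 (-0.63), the cytokinin N-glucosyltransferase UGT76C1 (-0.55) and UGT76B1 (-0.50), which glucosylates isoleucic acid and salicylic acid. UGT76B1 had 8.15, 8.05 and 8.14 at -Fe 48 h, against 8.71, 8.69 and 8.45 with iron. UGT72E1, UGT73D1 and UGT73B5 remained called when any 1 array was left out and under every other alternative, and the other 4 did not. The count was 3 without Kas roots +Fe replicate 1, without Kas roots +Fe replicate 3 or without Kas roots -Fe 48 h replicate 3, and 4 without Kas roots -Fe 48 h replicate 1. For these fits and the next one, calls over all probe sets were not counted. Without the off-label arrays, which left 1 iron-fed array, 8 UGTs were called, with UGT87A2 (-1.76) and the flavonoid glucosyltransferase gene UGT78D2 (-1.38) among those that fell.

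PSAN moved in the same comparison, with a mean of 3.6 in Kas roots -Fe 48 h and 4.96 in Kas roots +Fe (limma adjusted p = 0.00991), as did the array's 25S rRNA control probe set, with means of 6.08 and 10.22. Their part in the falls and in the rise of UGT72E1 was not tested. The 25S control also differed in other comparisons. Its means were 9.03 in Kas and 5.55 in Tsu shoots +Fe, 9.79 and 7.2 in shoots -Fe 48 h, and 6.08 and 10.64 in roots -Fe 48 h. In Kas roots -Fe 24 h the mean was 9.61. Its part in those comparisons was not tested either. In bulk roots, fewer cells of a type and less RNA per cell cannot be told apart.

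In Tsu roots at 24 h 4 UGTs were called (8.51%, against 6.98% of all probe sets), 3 upwards (against 4.92%) and 1 downwards (against 2.05%). UGT87A2, which acts in flowering-time control, had 5.70, 5.64 and 5.42 at -Fe 24 h, against 4.44, 3.58 and 4.64 with iron, and rose by 1.37 (SE 0.34, 2.58-fold, adjusted p = 0.0223). UGT74B1, which glucosylates thiohydroximates in glucosinolate synthesis, had 8.58, 8.73 and 8.62 against 8.13, 7.65 and 8.03 with iron, and rose by 0.71 (SE 0.13, 1.63-fold, adjusted p = 0.00447). UGT85A5 fell by 0.69 (adjusted p = 0.0325). Of the 4 calls, only that of UGT74B1 remained without any 1 of the 6 arrays, and the count was 1 without Tsu roots +Fe replicate 2 or Tsu roots -Fe 24 h replicate 2 and 8 without Tsu roots +Fe replicate 3. PSAN averaged 3.54 in Tsu roots -Fe 24 h and 4.56 in Tsu roots +Fe (adjusted p = 0.0409), and its part in these calls was not tested.

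In Tsu roots at 48 h UGT72E1 alone was called (2.13%, against 1.62% of all probe sets, 0.985% upwards). UGT87A2 had 5.84, 5.35 and 5.57 at -Fe 48 h, with a difference of 1.37 and a limma adjusted p of 0.0515. Without the off-label arrays, which left Tsu roots +Fe replicate 2 as the single iron-fed array, 11 UGTs were called, among them UGT87A2 (2.01), UGT85A2 (1.13), UGT73B1 (1.08) and UGT71B1 (-1.56). The count was 3 without Tsu roots +Fe replicate 3 or without Tsu roots -Fe 48 h replicate 2, and 2 without Tsu roots +Fe replicate 2. The shares of all probe sets called in these fits were not counted, so the counts do not set UGTs apart.

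In Kas shoots UGT72E1 was the single call at 24 h (2.13%, against 1.86% of all probe sets, 0.805% downwards). At 48 h 2 UGTs were called, both upwards (4.26%, against 4.11%, of which 2.2% upwards). UGT74D1, an auxin glucosyltransferase, had 5.26, 5.20 and 5.38 at -Fe 48 h, against 4.87, 4.73 and 4.65 with iron, and rose by 0.53 (SE 0.14, 1.45-fold, limma adjusted p = 0.0352). UGT76E12 rose by 0.51 (adjusted p = 0.0356) and averaged 2.66 at -Fe 48 h and 2.15 with iron, both dim values below the lower quartile of probe set means (3.001). UGT74D1 was lost in every fit that left out 1 of the 6 arrays, with adjusted p up to 0.131, and the count of calls was then 0 or 1.

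In Tsu shoots at 48 h UGT72E1 and UGT76C2 were called, 1 in each direction (4.26%, against 4.34% of all probe sets, 2.45% upwards and 1.89% downwards). UGT76C2, a cytokinin N-glucosyltransferase, had 4.32, 4.74 and 5.32 at -Fe 48 h, against 5.49, 5.55 and 5.56 with iron, and fell by 0.74 (SE 0.17, 1.67-fold, limma adjusted p = 0.0185). The UGT76C2 call remained in 2 of the 6 fits that left out 1 array. The count was 1 in 4 of those fits (without Tsu shoots +Fe replicate 2 or 3, or -Fe 48 h replicate 1 or 2) and 4 without Tsu shoots -Fe 48 h replicate 3.

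Tsu shoots at 24 h had 13 called UGTs, 9 upwards and 4 downwards (27.7%, against 16.1% of all probe sets, 8.29% upwards and 7.83% downwards). These are the arrays with an ecotype index of 0.401 to 0.567, against 0.007 to 0.03 for the iron-fed Tsu shoots. UGT87A2 had 6.19, 6.33 and 6.48 at -Fe 24 h, against 4.67, 4.89 and 5.06 with iron (1.46, 2.75-fold, limma adjusted p = 2.73e-07). UGT84A4, one of the enzymes that make glucose esters of hydroxycinnamic acids, had 5.51, 5.34 and 5.80 against 4.34, 4.08 and 4.31 with iron (1.31, 2.47-fold, adjusted p = 2.75e-06). Next by size were UGT73B5 (1.13) and UGT72B3 (1.06).

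Further rises in Tsu shoots at 24 h were UGT72E1 (0.995), UGT78D1 (0.82), UGT71B6 (0.76), which glucosylates abscisic acid, UGT88A1 (0.74) and the hydroxycinnamate glucosyltransferase gene UGT84A3 (0.44). The 4 that fell were UGT76C1 (-0.88), UGT76C2 (-0.70), UGT85A3 (-0.62) and the salicylic acid glucosyltransferase UGT74F1 (-0.39). With any 1 of the 6 arrays left out 9 of the 13 remained called in every fit. With the ecotype index as a covariate none did, and 12 of 22746 probe sets remained called in that fit. In shoots the index varied little within the other groups, so its slope rested mainly on the Tsu shoots -Fe 24 h arrays. The covariate fit therefore cannot tell the iron change from the index.

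The ecotype difference at -Fe 48 h can be set beside these 13. Kas and Tsu shoots at -Fe 48 h share no array with the 24 h comparison, and 11 of the 13 UGTs differed between Tsu shoots -Fe 24 h and Tsu shoots +Fe in the direction in which Kas shoots differed from Tsu shoots at -Fe 48 h. Of the 19 UGTs called between Kas and Tsu shoots at -Fe 48 h, 17 had that direction in Tsu shoots at 24 h, and over all 47 UGTs 32 did. UGT72E1 and UGT76C2 were the 2 exceptions among the 13. In roots the same count gave 0 of the 4 UGTs called in Tsu roots at 24 h, 8 of the 12 called between ecotypes at -Fe 48 h and 22 of all 47, and the index of Tsu roots -Fe 24 h was 0.412 to 0.667. These directions were not counted over all probe sets, in shoots or in roots, so the counts do not set UGTs apart from the array at large. The part of the ecotype index in the shoot changes was not tested, since the covariate fit cannot tell it from the iron change. In roots it was not tested beyond the covariate fit.

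**Figure D3:**
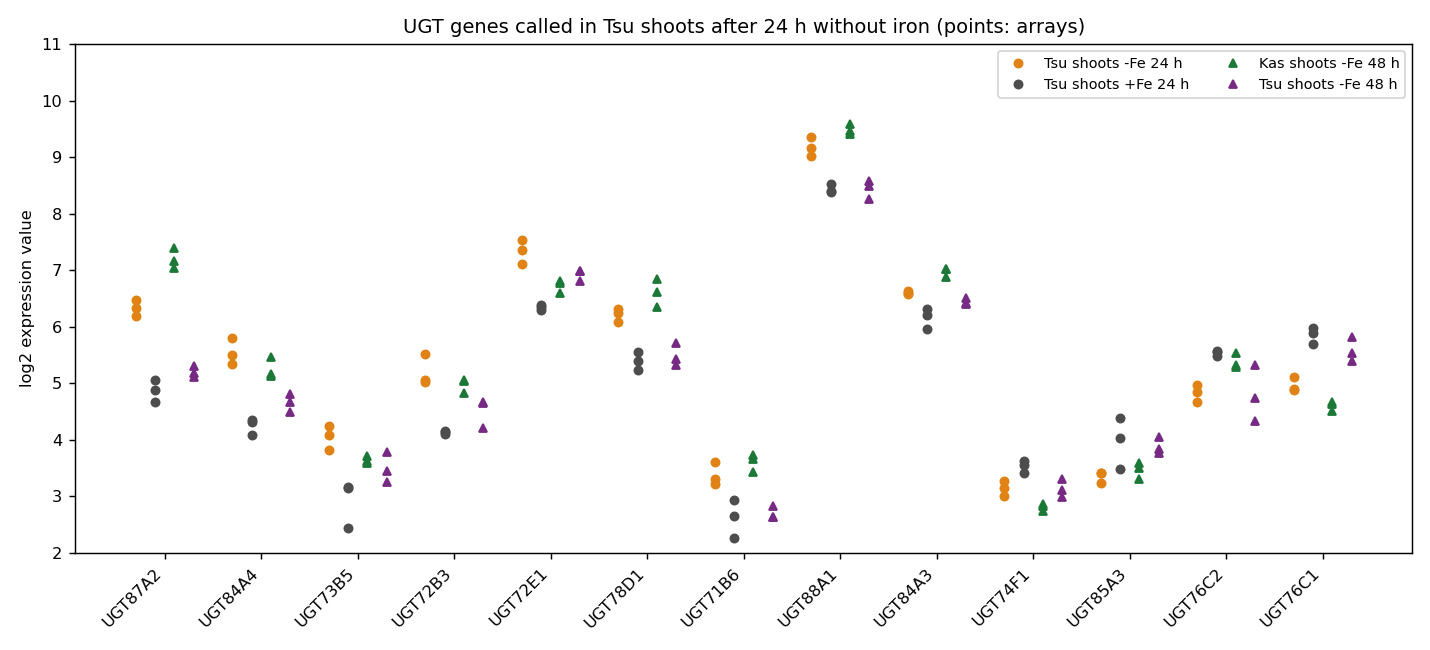
Log2 expression values (vertical axis) of the 13 UGT genes called in Tsu shoots after 24 h without iron, for Tsu shoots -Fe 24 h and +Fe (circles) and for Kas and Tsu shoots -Fe 48 h (triangles), 1 point per array. For UGT87A2 the Tsu -Fe 24 h arrays (6.19 to 6.48) lie between Tsu (5.11 to 5.31) and Kas (7.04 to 7.39) at 48 h, whereas for UGT72E1 they lie above both.

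The iron change of Kas less that of Tsu was called for 3 UGTs in roots at 24 h (6.38%, against 5.04% of all probe sets), 6 in roots at 48 h (12.8%, against 7.94%), 10 in shoots at 24 h (21.3%, against 11.2%) and 2 in shoots at 48 h (4.26%, against 3.94%). UGT87A2 in roots gave the largest of these differences among UGTs, -2.15 at 24 h (limma adjusted p = 0.0162) and -2.37 at 48 h (adjusted p = 0.00864). The 24 h call did not hold in every fit that left out 1 array. It also uses Tsu roots -Fe 24 h arrays, all 3 of them off their ecotype label. The Kas root values of UGT87A2 were 4.91, 4.8 and 4.64 at -Fe 24 h and 4.90, 4.41 and 4.37 at -Fe 48 h, against 6.32, 4.53 and 5.83 with iron. UGT87A2 was thus lower without iron than in 2 of 3 iron-fed arrays in Kas roots, and higher without iron than in all 3 in Tsu roots. Without the off-label arrays the difference at 48 h was -3.77 (adjusted p = 0.000146), with 1 iron-fed array of each ecotype.

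Also in roots at 48 h, UGT80B1, a sterol glucosyltransferase, differed in opposite directions by ecotype, though the iron difference was called in neither alone. It had 6.10, 5.51 and 5.47 at -Fe 48 h against 5.04, 5.5 and 5.01 with iron in Kas roots, and 4.67, 5.26 and 4.71 against 6.04, 5.69 and 5.46 with iron in Tsu roots. The difference of the changes was 1.36 (SE 0.30, limma adjusted p = 0.0137) and remained called without any 1 of the 12 arrays. It was not called with the ecotype index as covariate, and both +Fe root groups hold off-label arrays. UGT74B1 in roots at 24 h (-1.04, adjusted p = 0.00447) also remained called in every fit that left out 1 array.

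The count for roots at 48 h varied with single arrays, and calls over all probe sets were not counted in the fits below. It was 2 without Kas roots +Fe replicate 1, Kas roots +Fe replicate 3, Kas roots -Fe 48 h replicate 3 or Tsu roots -Fe 48 h replicate 1, 3 without Kas roots -Fe 48 h replicate 1 or 2, 12 without Tsu roots +Fe replicate 1, and 16 without all off-label arrays. In shoots at 48 h it was 0 without Kas shoots +Fe replicate 1 or Kas shoots -Fe 48 h replicate 3, and 1 in 7 of the other 10 such fits. For roots at 24 h it was 10 without Kas roots +Fe replicate 2 and 6 without Tsu roots +Fe replicate 3.

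Grouped by known role, the 6 UGTs of phenylpropanoid glucosylation (UGT72E1, UGT72E2, UGT72E3, UGT84A1, UGT84A3 and UGT84A4) supplied UGT72E1 as their single call in each of the 4 root comparisons, with group medians of 0.09 and 0.15 in Kas roots and 0.04 and 0.09 in Tsu roots at 24 h and 48 h. The medians over all probe sets were 0.03 and 0.04 in Kas roots, and -0.03 and -0.003 in Tsu roots. None of the 3 flavonol UGTs (UGT78D1, UGT78D2 and UGT78D3) was called in roots, where UGT78D1 and UGT78D2 differed by -0.78 to -0.62 in Kas at 24 h and 48 h, all 4 without a call. All were called without the off-label arrays, with 1 iron-fed array, at -1.25 and -1.18 for UGT78D1 and -1.12 and -1.38 for UGT78D2 at 24 h and 48 h (limma adjusted p between 0.00238 and 0.0254). The 10 UGTs that act on hormones or salicylic acid were UGT71B6, UGT71B8, UGT71C5, UGT74D1, UGT74F1, UGT76B1, UGT76C1, UGT76C2, UGT76D1 and UGT84B1. Of these, UGT76B1 and UGT76C1 fell and 0 rose in Kas roots at 48 h (against 3.9% of all probe sets downwards and 2.84% upwards), calls that were lost when single arrays were left out, and 0 were called in the other 3 root comparisons by limma.

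Genes around monolignol glucosides and coumarins were read from fixed lists, of which few members had a single-gene probe set: 2 of 18 phenylpropanoid enzymes, 3 of 3 monolignol glucosidases, 5 of 9 coumarin genes, 1 of 11 flavonoid genes and 0 of 3 regulators. In Kas roots at 48 h 2 of the 5 coumarin genes rose, S8H (scopoletin 8-hydroxylase) by 3.47 (limma adjusted p = 0.00221) and the glucosidase gene BGLU42 by 0.70 (adjusted p = 0.0255), while BGLU46, a monolignol glucosidase, fell by 1.23 (adjusted p = 0.00296) and CCR2, a cinnamoyl-CoA reductase, fell by 0.87 (adjusted p = 0.0434). In Tsu roots F6'H1 (feruloyl-CoA 6'-hydroxylase) rose by 1.06 at 24 h (adjusted p = 0.00282) and by 1.11 at 48 h (adjusted p = 0.00694), and S8H rose by 3.28 at 48 h (adjusted p = 0.00704). Tsu roots -Fe 24 h and both +Fe root groups hold arrays off their ecotype label, whose part in these calls was not tested.

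In shoots F6'H1 rose in Kas by 1.26 at 24 h (limma adjusted p = 0.0211) and by 1.43 at 48 h (adjusted p = 0.00471). In Tsu shoots at 24 h BGLU42 rose by 0.46, and BGLU47 fell by 1.43, BGLU46 by 0.66, S8H by 0.62 and HCT, an enzyme of lignin precursor synthesis, by 0.29. All 3 Tsu shoots -Fe 24 h arrays lie off their ecotype label (index 0.401 to 0.567). The part of the index in these calls was not tested. Of the 3 monolignol glucosidases, 2 were called lower in Kas than in Tsu shoots with iron. At -Fe 48 h 2 were called lower and 1 higher. None of the measured list genes was called in Kas roots at 24 h or in Tsu shoots at 48 h.

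Without iron, 48 h against 24 h called no UGT in Kas roots (0 of 47, also without the off-label arrays, against 0.277% of all probe sets, limma, with 6 at an unadjusted p below 0.05) or in Kas shoots (0 of 47, against 0.378%, with 4 at an unadjusted p below 0.05). In Tsu roots 3 were called, 1 higher and 2 lower at 48 h (6.38%, against 7.87%, of which 3.12% higher and 4.76% lower). UGT76D1, which glucosylates dihydroxybenzoic acids and whose Tsu root values at -Fe 48 h were low, had 4.26, 5.10 and 4.72 at 48 h, against 6.49, 6.80 and 6.31 at 24 h, and was lower at 48 h by 1.84 on the log2 scale (3.57-fold, limma adjusted p = 0.00112). UGT74D1 was higher at 48 h by 0.87 and UGT76B1 lower by 0.54. The 24 h arrays here are all off their ecotype label, and the count was 1 in 5 of the 6 fits that left out 1 array (all except the one without Tsu roots -Fe 48 h replicate 2).

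In Tsu shoots 7 UGTs were called between 48 h and 24 h (14.9%, against 10.7% of all probe sets, 5.59% higher and 5.1% lower). UGT87A2 (-1.13), UGT84A4 (-0.89), UGT88A1 (-0.74), UGT78D1 (-0.72), UGT72B3 (-0.68) and UGT72E1 (-0.41) were lower and UGT76C1 (0.61) was higher at 48 h. All 7 are among the 13 called between -Fe 24 h and +Fe in Tsu shoots, and both comparisons use the same -Fe 24 h arrays. The UGT72E1 call was lost in 5 of the 6 fits that left out 1 array (adjusted p up to 0.166), all except the one without Tsu shoots -Fe 24 h replicate 2.

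For roots against shoots the median absolute log2 difference over the 47 UGTs was 0.77 in Kas and 1.08 in Tsu, against 0.42 and 0.45 over all probe sets. Over the 8 iron comparisons it was 0.12 to 0.23 for the UGTs, against 0.12 to 0.19 over all probe sets. With iron, 31 UGTs were called between roots and shoots of Kas (15 root-high and 16 shoot-high, 66% against 55.5% of all probe sets, 30.4% root-high and 25.2% shoot-high) and 32 in Tsu (16 and 16, 68.1% against 56.8%, 31.7% and 25.1%). Both ecotypes called 14 UGTs root-high (29.8%, against 24.9% of all probe sets) and 14 shoot-high (29.8%, against 19.1%), and 0 with opposite signs (against 0.778%). With the off-label arrays left out, and 1 root array of each ecotype, 26 were called in Kas and 32 in Tsu. For 9 UGTs (19.1%, against 14.3% of all probe sets) all 18 root arrays lay above all 18 shoot arrays, whatever the ecotype and medium. For 11 UGTs (23.4%, against 12.6%) all shoot arrays lay above all root arrays.

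UGT71C1 had the widest gap, with values of 8.13 to 9.73 (median 9.18) in roots against 2.32 to 3.07 (median 2.74) in shoots, a difference of 6.23 in Kas (limma adjusted p = 1.50e-20) and 6.93 in Tsu (adjusted p = 8.92e-22). UGT76B1 had 7.79 to 8.71 (median 8.43) in roots against 1.68 to 4.23 (median 3.16) in shoots, a difference of 5.27 in Kas and 5.86 in Tsu. UGT72E2 was root-high by 4.01 in Kas and 5.28 in Tsu, and UGT72E3 by 2.40 and 3.14. UGT72E1 was root-high by 1.5 in Tsu with iron (adjusted p = 4.55e-07) and differed by 0.35 in Kas (95% interval -0.099 to 0.79, adjusted p = 0.182). The Kas difference was 0.65 without Kas roots +Fe replicate 1 (adjusted p = 0.00984) and -0.27 without the off-label arrays (adjusted p = 0.365), which leave only that replicate in Kas roots +Fe. The Tsu difference without them was 1.26 (adjusted p = 5.59e-05).

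On the shoot side UGT84A3 had 2.52 to 3.74 (median 2.75) in roots against 5.96 to 7.09 (median 6.61) in shoots, a difference of -4.07 in Kas and -3.04 in Tsu. UGT88A1 differed by -3.59 and -3.40, UGT76E11 by -2.85 and -3.32, UGT85A5 by -2.45 and -3.01 and UGT78D1 by -2.98 and -2.31. The sterol gene UGT80B1 was also higher in shoots, by 1.88 in Kas and 1.54 in Tsu.

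In the RefSeq gene order (TAIR10.1, used for names and neighbours), 24 members formed 10 runs of 2 to 4 directly adjacent members. In 3 of the 10 runs a root-high and a shoot-high member, each called in both ecotypes, stood together, and in the other 7 none did. UGT84A4 was root-high (1.17 in Kas, 2.31 in Tsu) while its run also holds UGT84A3, shoot-high by 4.07 and 3.04. UGT71C3 was root-high (4.28 and 3.56) beside UGT71C4, which was shoot-high (-0.72 and -1.31), and UGT76C2 was root-high (1 and 0.44) beside UGT76C1, which was shoot-high (-0.53 and -2.02). The UGT76C2 call in Tsu was lost without the off-label arrays, with the ecotype index as covariate, and in 2 of the 6 fits that left out 1 array (adjusted p up to 0.108). UGT71C1 and UGT71C2, adjacent as well, were both root-high (6.23 and 2.67 in Kas). Near-identical neighbours can share hybridisation, which was not tested.

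**Figure D4:**
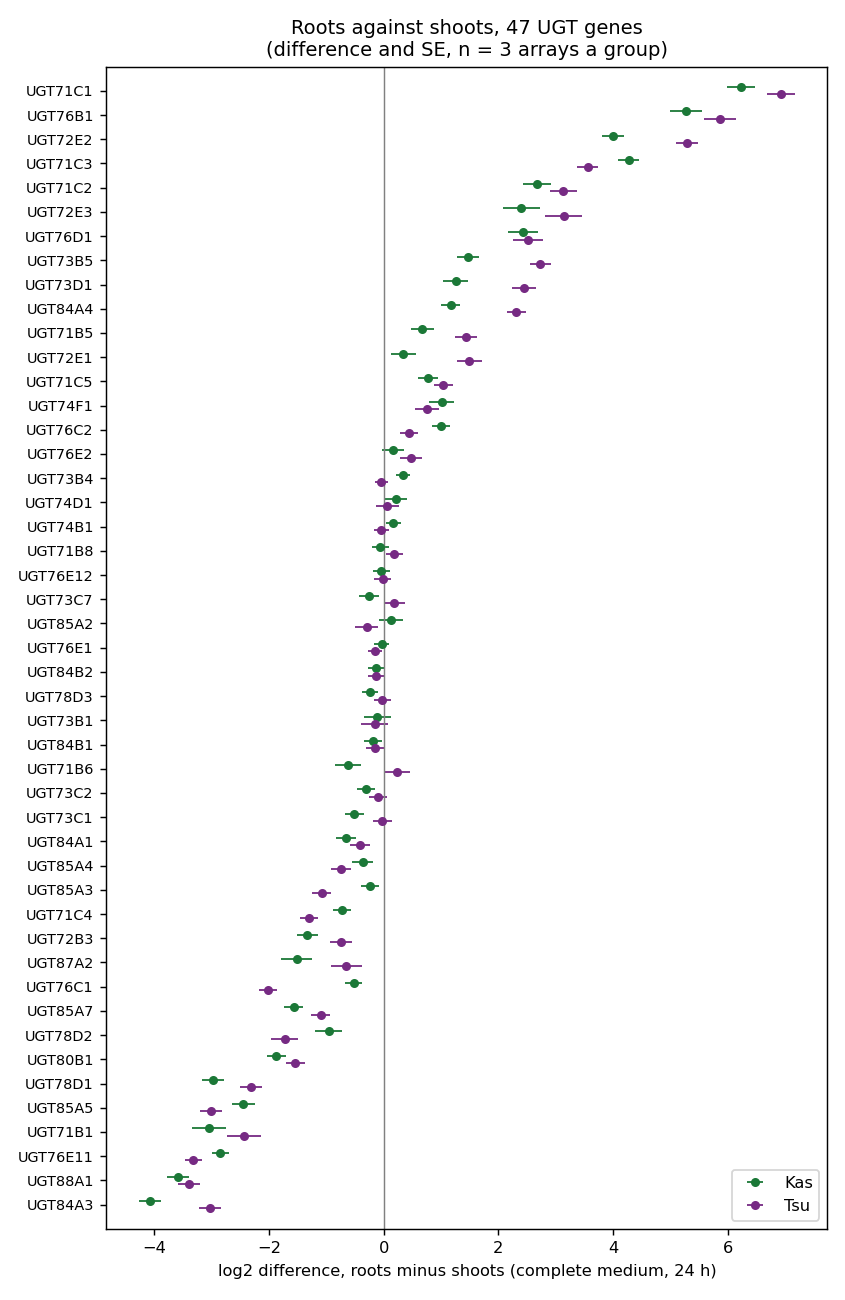
Log2 difference of roots minus shoots with iron (horizontal axis, with SE) for the 47 UGT genes (rows, ordered by the mean of both ecotypes), with Kas and Tsu as separate points from 3 arrays a group. UGT71C1 (6.23 and 6.93) stands at the root end and UGT84A3 (-4.07 and -3.04) at the shoot end, and Kas and Tsu lie on the same side of 0 for all 28 genes called in both.

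Between ecotypes the median absolute difference over the 47 UGTs was 0.33 in shoots on both media, and 0.32 at -Fe 48 h and 0.28 with iron in roots. In shoots 21 UGTs were called between Kas and Tsu with iron (13 higher and 8 lower in Kas, 44.7% against 33.2% of all probe sets, 13.2% higher and 20% lower) and 19 at -Fe 48 h (13 and 6, 40.4% against 36.7%, 13.4% higher and 23.2% lower). Of these, 16 were called on both media with the same sign (34%, against 21.8% of all probe sets) and 0 with opposite signs (against 0.374%). UGT87A2 had 7.39, 7.04 and 7.16 in Kas shoots -Fe 48 h, against 5.31, 5.11 and 5.19 in Tsu, a difference of 1.99 (limma adjusted p = 8.02e-10), and 2.20 with iron.

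UGT73D1 was higher in Kas shoots by 1.91 at -Fe 48 h and 1.37 with iron, and UGT78D1 by 1.11 and 1.45. UGT85A5 was lower in Kas shoots by 1.74 at -Fe 48 h (limma adjusted p = 6.53e-07) and by 1.35 with iron, and UGT76C1 was lower by 0.98 and 1.18. UGT72E2 was higher in Kas shoots by 0.85 at -Fe 48 h and 1.16 with iron, and UGT72E1 by 0.42 with iron (adjusted p = 0.0111, or 0.0659 without Kas shoots +Fe replicate 1), with -0.20 at -Fe 48 h (adjusted p = 0.217). Probe sequences were designed on the reference accession, and sequence differences between ecotypes can alter hybridisation, which was not tested. The 25S rRNA control probe set also differed between the ecotypes (means of 9.03 in Kas and 5.55 in Tsu shoots +Fe), and its part was not tested.

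In roots 12 UGTs were called between Kas and Tsu at -Fe 48 h (5 higher and 7 lower in Kas, 25.5% against 24.7% of all probe sets, 9.05% higher and 15.7% lower), UGT72E3 with the largest difference and UGT73B1 next (-1.34). With iron 9 were called (6 and 3, 19.1% against 9.86%, 3.42% higher and 6.44% lower), but with off-label arrays in both groups. That count was 1 without Kas roots +Fe replicate 1 or 3, 3 without Tsu roots +Fe replicate 2, and 16 without all off-label arrays, which left 1 array of each ecotype. In that fit UGT87A2 was higher in Kas roots +Fe by 2.74 (limma adjusted p = 0.000281). At -Fe 48 h the count was 7 without Tsu roots -Fe 48 h replicate 1 or 3. The shares of all probe sets called in these fits were not counted. UGT72E1 was not called between ecotypes in roots at -Fe 48 h (-0.55, limma adjusted p = 0.155) or with iron (-0.73, adjusted p = 0.0931). It was called at -Fe 48 h without Tsu roots -Fe 48 h replicate 2 (-0.85, adjusted p = 0.0358) and with iron without Kas roots +Fe replicate 2 (-1, adjusted p = 0.0214) or without all off-label arrays (-1.12, adjusted p = 0.0465).

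At -Fe 48 h 6 UGTs were called between ecotypes in both tissues, 4 with the same sign (8.51%, against 10.9% of all probe sets) and 2 with opposite signs (4.26%, against 2.3%). UGT78D1, UGT84A4 and UGT88A1 were higher in Kas in both and UGT71B8 was lower in both. The UGT71B8 call in roots (-0.46, limma adjusted p = 0.0346) was lost in each of the 6 fits that left out 1 array. Its root means were low, 2.80 in Kas and 3.25 in Tsu. UGT73D1 and UGT87A2 were higher in Kas in shoots and lower in Kas in roots, by -0.85 (limma adjusted p = 0.00831) and -1.03 (adjusted p = 0.0346) in roots.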

How the data were processed

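Expression was measured on 36 one-colour Affymetrix arrays. The deposited table holds log2 expression, with 1 value for each probe set and array, with array medians between 4.91 and 5.14; how the authors corrected, summarised and normalized them is not given in the sources used here. The number of arrays limits the precision, and no detection calls were used. After 64 control probe sets were left out, 22746 were tested with limma 3.58.1 in R 4.3.3 (lmFit and eBayes, two-sided, Benjamini-Hochberg over all probe sets, threshold 0.05), with the 18 arrays of a tissue in 1 fit and all 36 for contrasts between tissues. Groups came from the sample titles. Levels of different probe sets were not compared. The code was tested on simulated data with known changes.

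Every UGT could be named, with up to 10 called members per comparison by size given values, and, outside the family, called genes of the fixed lists and the 5 probe sets most correlated with UGT72E1 in roots. The members and lists were chosen with earlier results of these data known. All 47 symbols matched RefSeq (TAIR10.1). 0 value columns were unmapped, 0 array pairs were identical (highest correlation 0.996), and same-numbered samples did not deviate together, so replicate numbers were not taken as pairs. Alternatives were all 36 arrays in 1 fit, the compared arrays alone, a trended prior, quantile normalization, no dim probe sets, the ecotype index as covariate, no off-label arrays (an index 0.2 or more from the label), the replicate block and each array left out.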

Additional observations from a re-analysis of the deposited data

Results flagged for a closer look

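The results below were picked out because the test of the difference itself, the iron change in Kas minus that in Tsu (log2, limma, 3 arrays a group), passed the threshold. Groups of 3 arrays are too small for the test of single outlying samples. In roots at 24 h these were UGT87A2 (-2.15), UGT74B1 (-1.04) and UGT73B4 (-0.76). In roots at 48 h they were UGT87A2 (-2.37), UGT80B1 (1.36), UGT73D1 (-1.03), UGT85A2 (-1.0001), UGT73B5 (-0.86) and UGT71C4 (-0.85). Arrays of Kas and Tsu roots +Fe and of both -Fe 24 h root groups lay off their ecotype label, and their part in these differences was not tested beyond the fits given.

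In shoots at 24 h they were UGT84A4 (-1.86), UGT72E1 (-1.47), UGT87A2 (-1.44), UGT73B5 (-1.39), UGT72B3 (-1.16), UGT76C1 (1.03), UGT78D1 (-0.98), UGT88A1 (-0.84), UGT76C2 (0.81) and UGT71C5 (-0.73). All 3 Tsu shoots -Fe 24 h arrays lay off their label (index 0.401 to 0.567), and with the index as a covariate 0 of these 10 were called. That fit cannot tell the iron change of Tsu shoots at 24 h from the index. In shoots at 48 h they were UGT76C2 (1.03) and UGT72E1 (-0.62).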

How the results depend on the processing

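Of 200 results (UGT72E1 and every called UGT in every comparison), 192 kept their sign under all alternatives run for them. Of the 8 that did not, 4 were UGT72E1 values with no call, which turned sign with 1 array left out (Kas shoots at 48 h, ecotype by iron in roots at 48 h, tissue by iron in Tsu at 24 h) or without the off-label arrays (roots against shoots in Kas, -0.27). The other 4 were calls that reversed with the ecotype index as covariate: UGT71B6 (-0.49), UGT74F1 (0.22) and UGT76C2 (0.14) in Tsu shoots at 24 h, and UGT76C2 in the ecotype by iron contrast of shoots at 24 h (-0.0501). Those 4 values had SE of 0.55 to 1.09 in that fit and were not called. In shoots the index varied little outside Tsu shoots -Fe 24 h, so that fit cannot tell it from the iron change. The cause was not tested. Counts of called UGTs changed by over 1.5 times as follows. With all 36 arrays in 1 fit they were 3 and 13 in Kas roots at 24 h and 48 h, 8 and 6 in Tsu roots, 0 and 0 in Kas shoots, 1 in Tsu shoots at 48 h, 7 and 15 for ecotype by iron in roots, 1 in shoots at 48 h, and 1 for 48 h against 24 h in Kas roots. Of all probe sets that fit called 1328 and 2908 in Kas roots, 3221 and 1349 in Tsu roots, 235 and 585 in Kas shoots and 535 in Tsu shoots at 48 h. The main fits called 442 and 1531, 1587 and 368, 424 and 935, and 988, in that order. UGT72E1 in the fit of all 36 arrays had -0.48 (limma adjusted p = 0.412) in Kas shoots at 24 h and 0.59 (0.178) in Tsu shoots at 48 h. With the compared arrays alone, which leaves fewer arrays to estimate the spread, counts were 0 in Kas roots at 24 h, Tsu roots at 48 h, Kas shoots at 24 h and Tsu shoots at 48 h, and 1 in Kas shoots at 48 h. UGT72E1 then had 1.85 (adjusted p = 0.0696) in Kas roots at 24 h, 1.74 (0.124) in Tsu roots at 48 h, -0.48 (0.0854) in Kas shoots at 24 h and 0.59 (0.0622) in Tsu shoots at 48 h. A trended prior gave 2 in Tsu roots at 48 h. Quantile normalization gave 3 in Tsu roots at 48 h, 0 in Kas shoots at 24 h (UGT72E1 -0.46, adjusted p = 0.0621), 1 for ecotype by iron in shoots at 48 h and 1 for 48 h against 24 h in Kas roots. Without dim probe sets, which left 19 members (14 between tissues), counts were 2 in Tsu roots at 48 h, 2 and 1 in Kas shoots at 24 h and 48 h, 8 in Tsu shoots at 24 h, 2, 10 and 10 for Kas against Tsu in roots +Fe, shoots +Fe and shoots -Fe 48 h, and 11 and 12 for roots against shoots in Kas and Tsu. With the ecotype index as covariate 733 of all probe sets were called in Kas roots at 24 h and 549 and 185 in Tsu roots at 24 h and 48 h. At 24 h 375 were called in Kas shoots and 12 in Tsu shoots (3666 in the main fit). Counts of UGTs in that fit were 3 in Kas roots at 24 h, 2 in Tsu roots at 24 h and at 48 h, 2 in Kas shoots at 24 h and 0 in Tsu shoots at 24 h (UGT72E1 1.78, limma adjusted p = 0.642). Further UGT counts were 2 for ecotype by iron in roots at 48 h, 0 and 1 in shoots at 24 h and 48 h, and 0 for 48 h against 24 h in Tsu roots and in Tsu shoots. Without off-label arrays they were 6 in Kas roots at 24 h, 11 in Tsu roots at 48 h, 2 and 1 in Kas shoots, 16 for ecotype by iron in roots at 48 h and 16 for Kas against Tsu in roots +Fe. The replicate block gave 2 in Tsu roots at 48 h, 0 in Kas shoots at 24 h (UGT72E1 -0.48, adjusted p = 0.0576), 1 for ecotype by iron in shoots at 48 h and 1 for 48 h against 24 h in Kas roots. Of all probe sets the replicate block called 363 in Tsu roots at 48 h and 376 in Kas shoots at 24 h. The replicate numbers are no pairing by design, and correlations of same-numbered deviations lay between -0.391 and 0.144.

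With 1 array left out at a time, counts ranged from 1 to 5 and 3 to 10 in Kas roots at 24 h and 48 h, 1 to 8 and 1 to 3 in Tsu roots, 0 to 0 and 0 to 1 in Kas shoots, 9 to 12 and 1 to 4 in Tsu shoots, 2 to 10 and 2 to 12 for ecotype by iron in roots, 8 to 12 and 0 to 2 in shoots, 1 to 12 and 7 to 11 for Kas against Tsu in roots +Fe and -Fe 48 h, 19 to 21 and 16 to 21 in shoots, 1 to 2 and 6 to 9 for 48 h against 24 h in Tsu roots and shoots, and 30 to 33 and 29 to 31 for roots against shoots in Kas and Tsu. The UGT72E1 change ranged from 1.54 to 2.12 and 1.61 to 2.19 in Kas roots, 0.94 to 1.35 and 1.59 to 2.03 in Tsu roots, -0.55 to -0.38 and -0.11 to 0.06 in Kas shoots, and 0.90 to 1.11 and 0.55 to 0.65 in Tsu shoots at 24 h and 48 h. Without the off-label arrays, Tsu -Fe 24 h groups had no array, so their comparisons gave no value. Numbers of all probe sets called were not counted for fits with single arrays or off-label arrays left out, nor for the other alternatives given without them. A change in those UGT counts cannot be told from a change over all probe sets.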
